A study of Mus musculus with 2 samples.

Results

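The mouse receptors for the constant part of IgG, together with the adaptors, kinases and phosphatase through which they signal in myeloid cells, were examined in the liver of mice lacking hepatocyte Lpcat3 on a western diet. The 9 genes were the receptors Fcgr1, Fcgr2b, Fcgr3 and Fcgr4, the adaptors Fcer1g and Tyrobp, the kinases Syk and Lyn, and the phosphatase Ptpn6. They were taken as the probe sets whose single gene symbol in the platform annotation was one of these names. Of the 9 genes, 8 had at least 1 such probe set, 17 probe sets in all, out of 18193 genes on the arrays. Lyn matched no probe set by this rule and was not analysed here.

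L-Lpcat3 KO mice carried Lpcat3fl/fl and Albumin-Cre, and the controls were Lpcat3fl/fl mice without Cre. All were males and homozygous for the floxed Lpcat3 allele. The western diet began when they were 7 weeks old and lasted 9 weeks, and their livers were taken at 16 weeks after a fast of 6 hr. Whole-liver RNA of 5 mice per genotype was pooled and hybridised to 1 Affymetrix Mouse Genome 430 2.0 array per genotype, so that there is no replicate, no test between genotypes and no p-value. The albumin promoter drives Cre in hepatocytes. The macrophages and endothelial cells that carry Fc receptors are not its target, and their Lpcat3 was not measured separately here. The study calls the residual Lpcat3 of the liver likely to come from such cells.

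Fc gamma receptors bind IgG on immune complexes and opsonised particles. The activating receptors Fcgr1, Fcgr3 and Fcgr4 carry no signalling motif of their own and pair with the gamma chain encoded by Fcer1g. The gamma chain holds an activating tyrosine motif (ITAM), which is phosphorylated by Src family kinases such as Lyn and then recruits Syk. Tyrobp (DAP12) is a second ITAM adaptor that serves other myeloid receptors such as Trem2. Fcgr2b instead carries an inhibitory tyrosine motif (ITIM), and ITIMs recruit phosphatases, among them Ptpn6 (SHP-1) and the lipid phosphatase Inpp5d (SHIP). In liver, Kupffer cells carry both kinds of receptor, and sinusoidal endothelial cells are rich in Fcgr2b.

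The adaptors Fcer1g and Tyrobp rose 2.59-fold and 2.52-fold and the activating receptor Fcgr4 rose 2.30-fold in the L-Lpcat3 KO pool, and the 4 measured probe sets of Fcgr2b lay between 1.19-fold and 1.29-fold. Syk, Fcgr3 and Fcgr1 were 1.91-fold, 1.85-fold and 1.72-fold higher, under the 2-fold threshold used for a call. Of 8 member genes, 3 passed 2-fold upward, against 2.70% of all 12290 measured genes, and 0 passed it downward, against 0.700%. The median log2 ratio of the 8 genes was 0.91, against 0.01 for all measured genes. Fcer1g and Fcgr4 are shown in a panel that the study made from these arrays, so their direction is not independent evidence. Without them 1 of 6 genes was called and the median was 0.84. All members were chosen with earlier results of these data known, so these counts and medians describe the list and are not independent evidence.

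The values are MAS5 signals, a linear measure of probe set brightness scaled so that the trimmed mean was 500.0 on both arrays. Signals below 86.6, the median of all values, were raised to that floor, and a probe set counted as measured if it reached the floor on at least 1 array. Where a gene had several probe sets, the one with the highest mean log2 signal over both arrays stands for it. Signals depend on the probes, so the order of signals between genes is not read as an order of RNA levels, and a summed signal is compared only with the same sum on the other array. Lpcat3 had a signal of 2198 in the L-Lpcat3 KO pool and 5173 in the control pool, a log2 ratio of -1.23. The signal was lower in the KO pool, but it is not known whether these probes fall inside the deleted exon. With 1 array per genotype the number of arrays limits the precision. As a measure of technical spread, probe sets for the same gene differed in log2 ratio with a pooled SD of 0.29 (4476 genes), which gives 0.40 for a difference between 2 genes. Variation between mice is not part of it.

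Fcer1g, the shared gamma chain of the activating receptors, had a signal of 1646 in the L-Lpcat3 KO pool and 636 in the control pool on its single probe set (1418340_at). Its log2 ratio of 1.37 was the highest of the members, and 0.928% of measured genes had a ratio at least as high. Tyrobp had a signal of 2136 in the L-Lpcat3 KO pool and 848 in the control pool (1450792_at), a log2 ratio of 1.33. The ratios of these ITAM adaptors differed from each other by 0.04, less than the technical SD of 0.40.

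Among the activating receptors, Fcgr4 had the highest ratio. Fcgr4, which binds IgG with intermediate affinity, had a signal of 768 in the L-Lpcat3 KO pool and 334 in the control pool (1425225_at), a log2 ratio of 1.20. Fcgr3, a low-affinity receptor, had 642 in the L-Lpcat3 KO pool and 347 in the control pool (1448620_at), a log2 ratio of 0.89. The high-affinity receptor Fcgr1 had signals of 228 in the L-Lpcat3 KO pool and 133 in the control pool on 1417876_at, and 182 in the L-Lpcat3 KO pool and 118 in the control pool on 1436625_at. Both Fcgr1 probe sets were higher in the L-Lpcat3 KO pool, at log2 ratios of 0.78 and 0.63, with signals within a few-fold of the floor. The ratio of the adaptor Fcer1g exceeded that of Fcgr4 by 0.17, less than that SD.

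**Figure D1:**
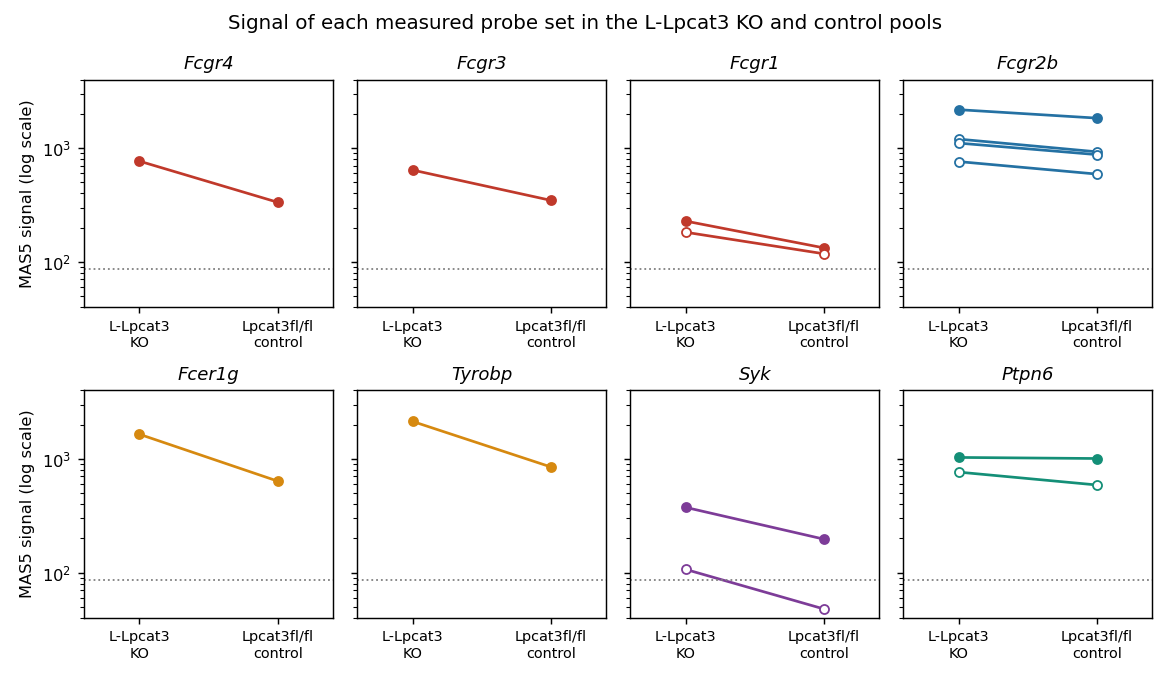
MAS5 signal (log scale) of each measured probe set in the L-Lpcat3 KO pool (left) and the Lpcat3fl/fl control pool (right), 1 panel per gene. Each line is a probe set, filled points mark the one that represents the gene, and the dotted line is the floor of 86.6. The lines fall to the right for Fcgr4 (768 in the L-Lpcat3 KO pool, 334 in the control pool), Fcer1g and Tyrobp and are nearly level for Fcgr2b and for the upper probe set of Ptpn6.

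The inhibitory receptor Fcgr2b showed a small difference on all of its 4 measured probe sets. Its signals were 2181 in the L-Lpcat3 KO pool and 1838 in the control pool on 1435477_s_at, and 1201 in the L-Lpcat3 KO pool and 929 in the control pool on 1435476_a_at. On 1451941_a_at they were 1108 in the L-Lpcat3 KO pool and 877 in the control pool, and on 1455332_x_at 762 in the L-Lpcat3 KO pool and 591 in the control pool. The log2 ratios ran from 0.25 to 0.37. The annotation gives the same source sequence for 3 of these 4 probe sets, so they are not independent measurements, and the other probe set (1447622_at) was below the floor on both arrays. Fcgr2b and Fcgr3 have closely similar extracellular parts in the mouse, and whether any probe set detects both was not tested.

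Fcgr4, Fcgr3 and Fcgr1 exceeded Fcgr2b in log2 ratio by 0.96, 0.64 and 0.54. The lower Fcgr1 probe set exceeded the highest Fcgr2b probe set by 0.26, less than 1 technical SD. Set against the technical SD of 0.40 for a difference between genes, the Fcgr4 difference was more than 2 SD (0.81) and those of Fcgr3 and Fcgr1 were not. With the floor at the 75th percentile the Fcgr4 difference was 0.68, under 2 SD. Fcer1g exceeded Fcgr2b by 1.12. Ordered by ratio, the genes ran Fcer1g, Tyrobp, Fcgr4, Syk, Fcgr3, Fcgr1, Fcgr2b and Ptpn6. The step from Fcgr1 to Fcgr2b, 0.54, was the largest between neighbours, and every other step was at most 0.27, within 1 SD.

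Of the cytoplasmic partners, the kinase Syk had a signal of 374 in the L-Lpcat3 KO pool and 196 in the control pool on 1418261_at, a log2 ratio of 0.93. A second Syk probe set (1418262_at) had 107 in the L-Lpcat3 KO pool and 47.7 in the control pool. Since the control value lay below the floor, the second ratio is a lower bound, at least 1.23-fold. The other Syk probe sets (1425797_a_at and 1457239_at) were below the floor on both arrays. The phosphatase Ptpn6 had 1029 in the L-Lpcat3 KO pool and 1007 in the control pool on 1456694_x_at, a type of probe set that can match several transcripts. Its second probe set (1460188_at) had 765 in the L-Lpcat3 KO pool and 589 in the control pool. The log2 ratios of Ptpn6 were 0.03 and 0.38, and the first became -0.08 when each array was centred on its median, so no direction is given for it. Syk exceeded Ptpn6 by 0.90 on the representing probe sets, and the size of this difference depends on the probe sets used. Without probe sets ending in _s_at or _x_at Syk was at 0.93 and Ptpn6 at 0.38. With the mean of probe sets they were at 0.61 and 0.20.

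**Figure D2:**
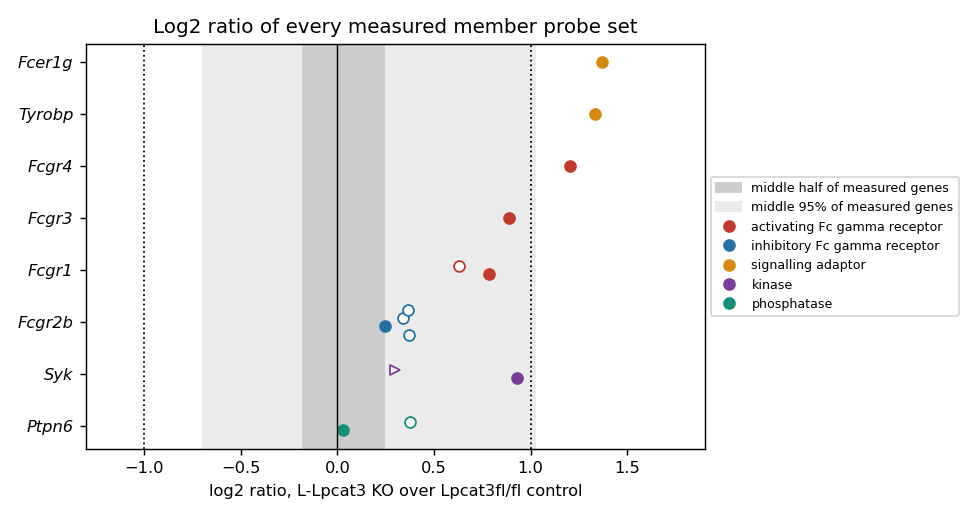
Log2 ratio of L-Lpcat3 KO over Lpcat3fl/fl control for the 14 measured member probe sets, coloured by role. Filled symbols represent the gene, the triangle is a lower bound, dotted lines mark 2-fold, and grey bands hold the middle 50% and the middle 95% of all measured genes. Fcer1g, Tyrobp and Fcgr4 lie beyond 2-fold, while the Fcgr2b probe sets end at 0.37.

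Over probe sets, 14 of the 17 were measured and 13 reached the floor on both arrays. Of the 14, 3 were at least 2-fold higher, against 2.36% of 20847 measured probe sets, and 7 were at least 1.5-fold higher, against 8.23%. At 1.5-fold 6 of 8 member genes were higher, against 9.07% of genes. At 3-fold 0 member genes were higher, against 0.448% of genes, and 0 member probe sets, against 0.360%. Downward, 0 member genes passed 1.5-fold (3.83% of genes) or 3-fold (0.0895%). All 14 probe set ratios lay above 0, as did 50.8% of all measured probe sets and 51.2% of genes, and with each array centred on its median 13 of 14 did. All these values come from the same 2 arrays, so probe sets and genes are not replicates of the difference. In whole-liver RNA, more cells of a type and more RNA per cell cannot be told apart.

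**Figure D3:**
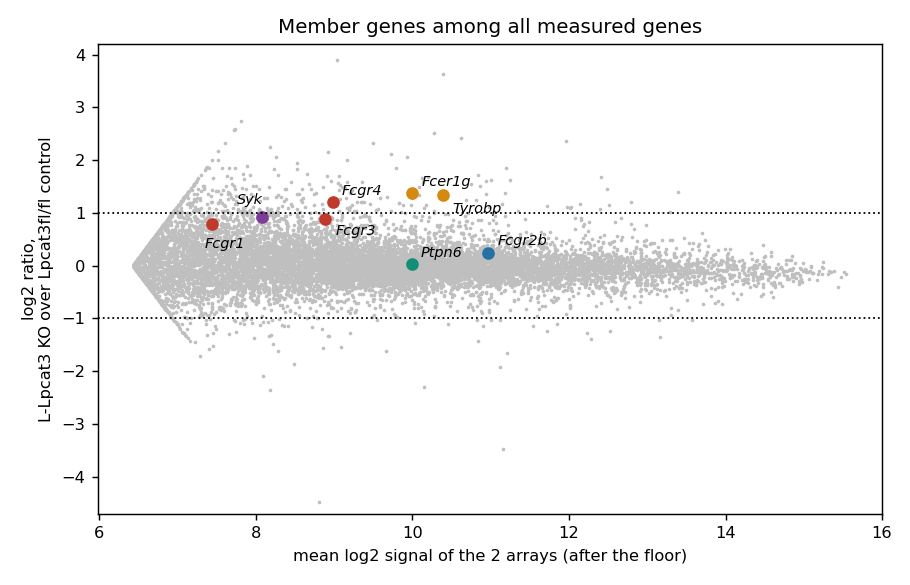
Log2 ratio of L-Lpcat3 KO over Lpcat3fl/fl control (y axis) against the mean log2 signal of both arrays after the floor (x axis) for the 12290 measured genes, in grey, with the 8 member genes in colour. Dotted lines mark 2-fold. Fcer1g (1.37) and Tyrobp (1.33) lie above the upper dotted line, and Fcgr1 (0.78) and Syk (0.93) below it and further to the left.

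The upstream sequences of the receptor genes are shown beside their ratios, not as an account of them. Of the differences from Fcgr2b only that of Fcgr4 was more than 2 SD, and not with the floor at the 75th percentile. RefSeq promoters (build GRCm38.p6) were matched by symbol for 7 of the 9 members, with 9 start sites. Each line holds the 100 bases before a start site, 5′ to 3′ on the strand of the gene. The letters searched were AGAGGAAG, on both strands, which contain the purine-rich core GAGGAA bound by the myeloid Ets factor PU.1. The letters were chosen after these sequences had been read. Capitals mark a match, here the reverse complement CTTCCTCT.
Fcgr1, chr3:96293970-96294069, minus strand: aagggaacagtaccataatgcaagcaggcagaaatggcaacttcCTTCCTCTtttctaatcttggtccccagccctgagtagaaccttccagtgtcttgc
Fcgr3, chr1:171059395-171059494, minus strand: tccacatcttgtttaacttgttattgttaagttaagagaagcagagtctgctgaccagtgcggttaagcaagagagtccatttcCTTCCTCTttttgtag
Fcgr4, chr1:171018826-171018925, plus strand: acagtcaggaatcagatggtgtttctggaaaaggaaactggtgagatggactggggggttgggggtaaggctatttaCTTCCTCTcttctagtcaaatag
Fcgr2b, chr1:170976072-170976171, minus strand: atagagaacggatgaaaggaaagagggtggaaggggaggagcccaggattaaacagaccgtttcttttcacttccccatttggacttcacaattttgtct
The match lay in the upstream sequence of Fcgr1, Fcgr3 and Fcgr4, beginning at positions -56, -16 and -23 from the start site, and in none of the windows of Fcgr2b, Fcer1g, Syk and Ptpn6, where 250 bases before the start were searched. The core GAGGAA alone was also found before 1 of the start sites of Syk, at position -9. Of all 27025 genes in the promoter table, 4.27% held the 8 letters in 250 bases and 25.9% held the core. Because the letters were taken from these receptor genes, these shares are no test of a difference between them. At the other start site given for Fcgr3 the 8 letters run past the start. A match describes letters and is not a measured site, and the lack of a match does not show that PU.1 cannot bind. The shorter run GGAA, which lies inside the core, is also in the line printed for Fcgr2b.

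Fcgr2b, Fcgr4, Fcgr3 and Fcer1g lie on 1 stretch of chromosome 1 in RefSeq, with other protein-coding genes between Fcgr3 and Fcer1g. The 6 of these genes that were measured had log2 ratios from -0.32 to 0.99 with a median of 0.11. The apolipoprotein gene Apoa2, next to Fcer1g on one side, had a signal of 34761 in the L-Lpcat3 KO pool and 35021 in the control pool. Sdhc, a subunit of succinate dehydrogenase, was at 0.02 and the nuclear receptor gene Nr1i3 at -0.32. The highest was Pcp4l1, with 172 in the L-Lpcat3 KO pool and 80.8, below the floor, in the control pool. These neighbours were named outside the rule for named genes.

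Of all measured genes 2.70% were at least 2-fold higher, the share to set beside the counts of the lists that follow. Among other Fc receptors 1 of 4 measured genes was at least 2-fold higher. It was Fcmr, the receptor for IgM on B cells, with 285 in the L-Lpcat3 KO pool and 56.5, below the floor, in the control pool, at least 3.29-fold. Pigr, which carries polymeric immunoglobulin across hepatocytes and other epithelia, had 12415 in the L-Lpcat3 KO pool and 20437 in the control pool, a log2 ratio of -0.72. Fcgrt, the neonatal Fc receptor that recycles IgG, was at 0.10. The alpha and beta chains of the IgE receptor, Fcer1a and Ms4a2, with which Fcer1g also pairs, were below the floor on both arrays. So was Gp6, a platelet collagen receptor that pairs with Fcer1g.

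Of the receptors that pair with Fcer1g or Tyrobp, 9 of 17 with a probe set were measured, 8 of the 9 had ratios above 0 and 1 was at least 2-fold higher. The called gene was Cd300lb, with 215 in the L-Lpcat3 KO pool and 94.1 in the control pool, a log2 ratio of 1.19. Pilrb1, an activating receptor, had 521 in the L-Lpcat3 KO pool and 305 in the control pool, a log2 ratio of 0.77. The list had a median of 0.73. For 4 of the 9 genes 1 array was below the floor, among them Trem2 with 114 in the L-Lpcat3 KO pool and 33.4 in the control pool.

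Of 9 measured Src, Syk and Tec family kinases 0 were called, with a median of 0.20. Zap70, a kinase of T and NK cells, was at -0.20, the highest of its 3 measured probe sets, with -0.84 at the lowest. The probe set at -0.20 had 2160 in the L-Lpcat3 KO pool and 2482 in the control pool. The T cell genes Cd3d, Cd3g, Cd4 and Cd8a were below the floor on both arrays. Whether this probe set detects only Zap70 was not tested. Among 20 measured adaptors and enzymes downstream of Syk 1 was called. It was Wipf1, a partner of the actin regulator Was, at 1.20, with 0.79 on its other probe set. The list median was 0.21, and the phosphoinositide kinase subunit Pik3cd was at -0.28 on one probe set and 0.43 on the other. The probe set at -0.28 had 16201 in the L-Lpcat3 KO pool and 19720 in the control pool. What it detects was not tested.

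Receptors with ITIMs other than Fcgr2b had a median of 1.02. Of 10 measured genes 5 were at least 2-fold higher, against 2.70% of all measured genes. The C-type lectin Clec4a2 had 294 in the L-Lpcat3 KO pool and 110 in the control pool (log2 ratio 1.42). Cd72 was at 1.29, the collagen receptor Lair1 at 1.17, Sirpa, the macrophage receptor for Cd47, at 1.15 and the B cell lectin Cd22, which is outside the rule for named genes, at 1.10. Other probe sets of the same gene were lower for Lair1 (0.14) and for Sirpa (0.03 at the lowest). Ceacam1, a cell adhesion receptor, was at -0.19.

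Of the 11 measured phosphatases and adaptors that restrain ITAM signalling, 2 were called, and the median was 0.23. Sla, an adaptor that downregulates antigen receptors, was at 1.51 and 0.69 on its probe sets. Inpp5d was at 1.03 on one probe set and -0.66 on the other, so its direction is not settled. Ptpn11 (SHP-2) was at 0.23. The phagocyte oxidase is the enzyme complex that Fc receptors activate to make superoxide. Of its 5 measured genes 4 were at least 2-fold higher, against 2.70% of all measured genes, and the median was 1.23. Cybb, its catalytic subunit, had 997 in the L-Lpcat3 KO pool and 430 in the control pool, with log2 ratios from 1.02 to 1.28 on 3 probe sets. Ncf4, Cyba and Rac2 were at 1.45, 1.37 and 1.23. Ncf1 was at 0.63 on one probe set and -0.22 on the other.

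**Figure D4:**
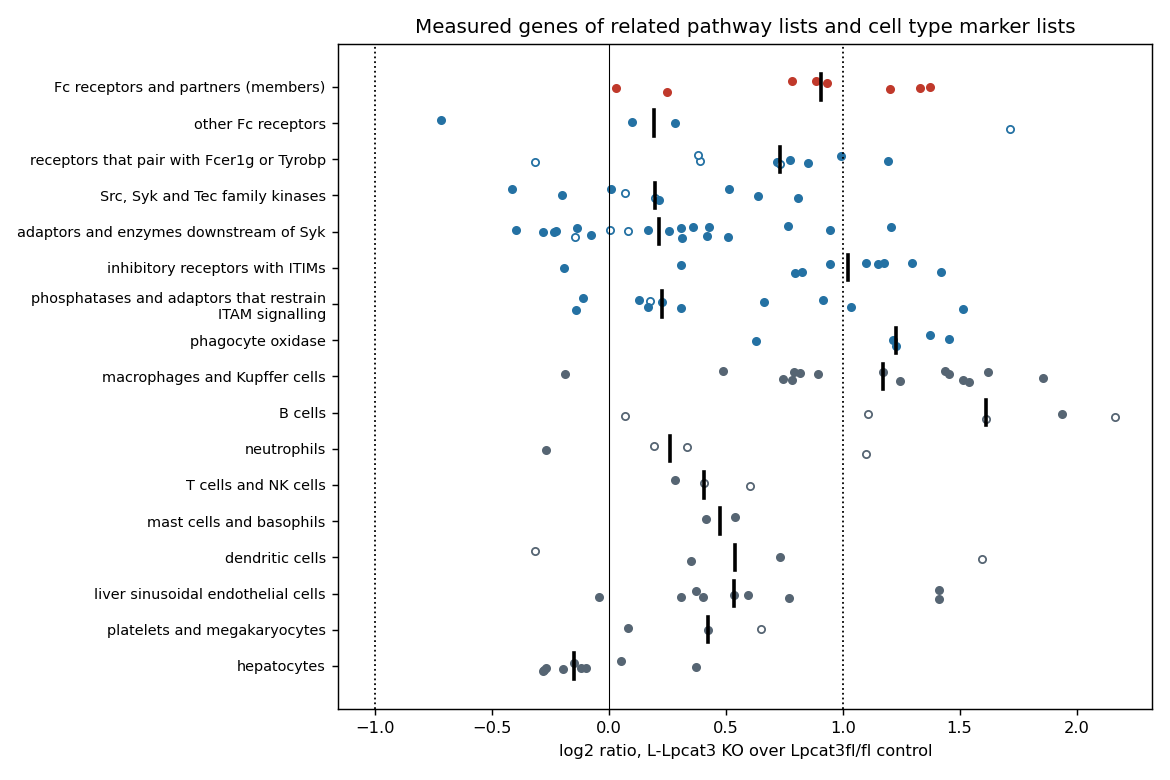
Log2 ratio of L-Lpcat3 KO over Lpcat3fl/fl control for each measured gene of the members (red), the related pathway lists (blue) and the cell type marker lists (grey). Open points mark genes below the floor on 1 array, each black bar is the median of its list, and 2-fold is dotted. The phagocyte oxidase (median 1.23) and the macrophage markers (1.17) lie to the right, and the hepatocyte markers are centred at -0.15.

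Markers of macrophages and Kupffer cells moved with the members. Of all measured genes 2.70% were at least 2-fold higher, the share to set beside the count of each marker list. Of 15 listed markers all 15 were measured, 8 were at least 2-fold higher, 14 were above 0, and the median log2 ratio was 1.17 (range -0.19 to 1.86). Their summed signal was 40560 in the L-Lpcat3 KO pool and 19300 in the control pool. The ratio was highest for lysozyme, Lyz2 (1.86), and lowest for the scavenger receptor Cd163 (-0.19). Sinusoidal endothelial markers, of the other cell type rich in Fcgr2b, had a median of 0.53 over 9 genes, 2 of them at least 2-fold higher (Lyve1 and Pecam1, each 1.41, with 0.56 on the other Lyve1 probe set), with a summed signal of 9284 in the L-Lpcat3 KO pool and 6831 in the control pool. B cell markers, of a cell type that carries Fcgr2b, Syk and Ptpn6, had 4 of 5 measured genes at least 2-fold higher. For 4 of the 5, 1 array was below the floor. The called gene Ms4a1 was at 2.17 on one probe set and 0.30 on its other measured one. The summed signal of all 8 B cell genes with a probe set, measured or not, was 1829 in the L-Lpcat3 KO pool and 545 in the control pool. Neutrophil markers had 1 of 4 measured genes called, S100a8 with 185 in the L-Lpcat3 KO pool and 84.8, below the floor, in the control pool, and Cxcr2, Camp and Elane were below the floor on both arrays. For T and NK cells 0 of 3 measured genes were called and 6 of 9 were below the floor. With the floor at the 25th percentile 4 were called, where 7.02% of all measured genes were at least 2-fold higher. The mast cell and basophil genes Cpa3, Mcpt4, Mcpt8 and Tpsb2 were below the floor on both arrays. Dendritic cell markers had 1 of 4 measured genes called, Itgax, at least 3.02-fold, and platelet markers 0 of 3. Of 9 hepatocyte markers none reached 2-fold, 2 were above 0 and the median was -0.15. Their summed signal was 259925 in the L-Lpcat3 KO pool and 283309 in the control pool. The part of these cell types in the members' differences was not tested.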

How the data were processed

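Per the labels, liver RNA of 5 mice per genotype was pooled and measured on 1 array each. The authors made the signals with MAS5, as the submitters' notes say without a version, and used GenespringGX. The deposited values are linear signal intensities of 45101 probe sets. Scaling to a common mean hides any difference in total signal.

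Gene names came from the annotation of the platform, which gave 34958 probe sets a single symbol. It gave several symbols to 932, which were not used, and did not list 9211. The RefSeq table (GRCm38.p6) held 18032 of the genes and served for gene names and order. Log2 ratios were taken after raising values below the 50th percentile of all values to it. Genes named are all members, Lpcat3 and, per related list, up to 4 measured genes past 2-fold and the one of highest mean log2 signal. Genes below the floor, marker genes, Fcgrt, Trem2, Cd22, Ncf1 and the neighbours on chromosome 1 were named outside this rule, with their values seen. Members and lists were chosen with earlier results of these data known. With 1 array per genotype no test was run. The alternatives were other normalizations, floors, a pseudocount, probe set rules and thresholds; those on single genes and on differences between genes were chosen after seeing the data. The counting was tested on simulated data. Python 3.11.15, numpy 2.4.6, pandas 2.3.3, statsmodels 0.14.6 and matplotlib 3.10.9 were used.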

Additional observations from a re-analysis of the deposited data

How the results depend on the processing

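Centring each array on its median, quantile normalization, loess, floors at the 25th and 75th percentile, no floor, a pseudocount of 32, the mean of probe sets and leaving out probe sets ending in _s_at or _x_at kept the count of member genes at least 2-fold higher between 2 and 3, and their median log2 ratio between 0.79 and 0.91. The count was 2 with the floor at the 75th percentile, where the control signal of Fcgr4 is raised to the floor and its log2 ratio becomes 0.92, and where Fcgr1 and Syk are no longer measured. The difference between Fcgr4 and Fcgr2b lay between 0.68 and 0.96, and was under 2 SD (0.81) with the floor at the 75th percentile. Without Fcer1g and Fcgr4, 1 member gene and 1 probe set were called. At 1.5-fold 6 genes and 7 probe sets were called, and at 3-fold 0 and 0. Syk was at 0.61 with the mean of its probe sets. Ptpn6 was at 0.38 without probe sets ending in _s_at or _x_at, against 0.03. Median centring moved the median of all genes to -0.10 and the share of higher among all 2-fold calls to 64.7%, against 79.4%. The percent of all measured genes at least 2-fold higher ran from 1.18 with the floor at the 75th percentile to 7.02 with the floor at the 25th. Receptors with ITIMs had 0 genes called with the floor at the 75th percentile and 3 with the pseudocount or the mean of probe sets, against 5. With floors at the 25th and 75th percentile the counts were 5 and 0 for partner receptors (against 1), 4 and 0 for restraining phosphatases and adaptors (against 2), 4 and 2 for the oxidase (against 4), 6 and 0 for B cell markers (against 4) and 8 and 6 for macrophage markers (against 8). T and NK cell markers had 4 genes called with the floor at the 25th percentile, 2 with no floor and 1 with the pseudocount (against 0). The kinases had 2 under each of these 3 settings (against 0). Endothelial markers had 1 with the floor at the 75th percentile or the mean of probe sets (against 2). No paired analysis was possible because each genotype has 1 array.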
